A study of Mus musculus with 12 samples.

Results

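The 9 genes described here are MAP kinase phosphatases of the Dusp family: Dusp1, Dusp2, Dusp4, Dusp5, Dusp6, Dusp7, Dusp8, Dusp10 and Dusp16. They were taken by gene symbol from a table of read counts for 56350 genes, and all 9 were found there and passed the filter on low counts. RNA was sequenced from bone marrow of 12 C57Bl/6J mice aged 12 to 14 weeks, of both sexes, in 4 groups of 3. The labels do not give the sex of each mouse, so its balance between groups is not known. The combination mice received the MEK inhibitor PD-901 (PD0325901) and the cytidine analogue 5-azacitidine, which lowers DNA methylation, the 5-azacitidine and PD-901 mice received that agent alone, and the vehicle mice received neither. PD-901 was given by mouth at 5 mg/kg in 20 doses and 5-azacitidine into the peritoneum at 5 mg/kg in 5 doses, both over 4 weeks. The mice of all 4 groups, vehicle included, carried the activating E76K allele of Shp2 on a single chromosome (Shp2E76K/+;LysM-Cre+), so none of the comparisons has a wild-type arm. The allele is switched on by a Cre recombinase made in myeloid cells, and whole marrow also holds cells that never made it. The series asks how the MEK inhibitor works together with the hypomethylating agent in this model of juvenile myelomonocytic leukaemia.

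MAP kinases are switched on by phosphorylation of a threonine and a tyrosine in their activation loop, and the Dusp enzymes switch them off by removing both phosphates. Several Dusp genes are themselves transcribed in response to ERK, the MAP kinase that MEK activates downstream of Shp2 and Ras, so that the pathway raises its own brake. Dusp1, Dusp2, Dusp4 and Dusp5 encode nuclear enzymes that are induced within minutes to hours of stimulation. Dusp6 and Dusp7 encode cytoplasmic enzymes that prefer ERK, and Dusp8, Dusp10 and Dusp16 encode enzymes that prefer the stress kinases JNK and p38.

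Total counts ran from 15356919 to 27148190 per library. Marrow identity was plain in all groups: the 8 mature neutrophil markers summed to 16011 to 19721 CPM (counts scaled to the TMM-adjusted library size) in the combination libraries and to 20800 to 44568 CPM in the 9 others. Some libraries stood apart. Lyz2, the gene that carries the Cre, was at 44.9, 55.9 and 1151 CPM in the combination libraries and at 172, 147 and 3228 CPM in the vehicle libraries, beside 699.6 to 4182 CPM with a single agent, and the results below were repeated without the 4 lowest, which leaves 1 combination and 1 vehicle library, each assumed to vary like the other groups. In 5-azacitidine replicate 1 the 9 Dusp genes together were lower than in the other libraries that did not receive both drugs. Some of the results that use it, where stated, are given with and without it. The p values set differences between groups against the spread between mice within groups, pooled over the 4 groups, which is the only error. Replicate numbers were given here within each group, in the order of the labels. They name mice and pair none of them.

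Dusp1 and Dusp6 were the most abundant family members by group mean, and their sum was far smaller in the combination mice than elsewhere. Levels between genes are compared as FPKM, the CPM over the table's gene length in kilobases. In the combination libraries the mean FPKM ran from Dusp1 (25.7 ± 8.30) through Dusp6 (10.1 ± 4.02), Dusp2 (8.04 ± 1.88), Dusp7 (6.84 ± 0.976), Dusp5 (2.45 ± 0.373), Dusp8 (2.07 ± 1.22), Dusp10 (1.37 ± 0.356) and Dusp16 (1.33 ± 0.527) to Dusp4 (0.330 ± 0.267; SD, n = 3). In the vehicle libraries it ran from Dusp1 (77.8 ± 9.75) through Dusp6 (63.8 ± 7.58), Dusp2 (18.3 ± 1.202), Dusp7 (17.4 ± 8.05), Dusp5 (8.28 ± 0.613), Dusp10 (2.07 ± 0.506), Dusp16 (1.31 ± 0.423) and Dusp4 (0.818 ± 0.453) to Dusp8 (0.509 ± 0.191). In the combination libraries Dusp1 stood above all others and Dusp4 below all others without overlap, while Dusp6, Dusp2 and Dusp7 overlapped. Dusp2 was above Dusp6 in combination replicate 1 (8.51 against 6.77 FPKM) and replicate 2 (9.65 against 8.91 FPKM). Dusp5 overlapped Dusp8 only, and Dusp8, Dusp10 and Dusp16 overlapped one another. In the vehicle libraries Dusp1 overlapped Dusp6, Dusp2 overlapped Dusp7, Dusp5 stood alone, and from Dusp10 down each gene overlapped the next.

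**Figure D1:**
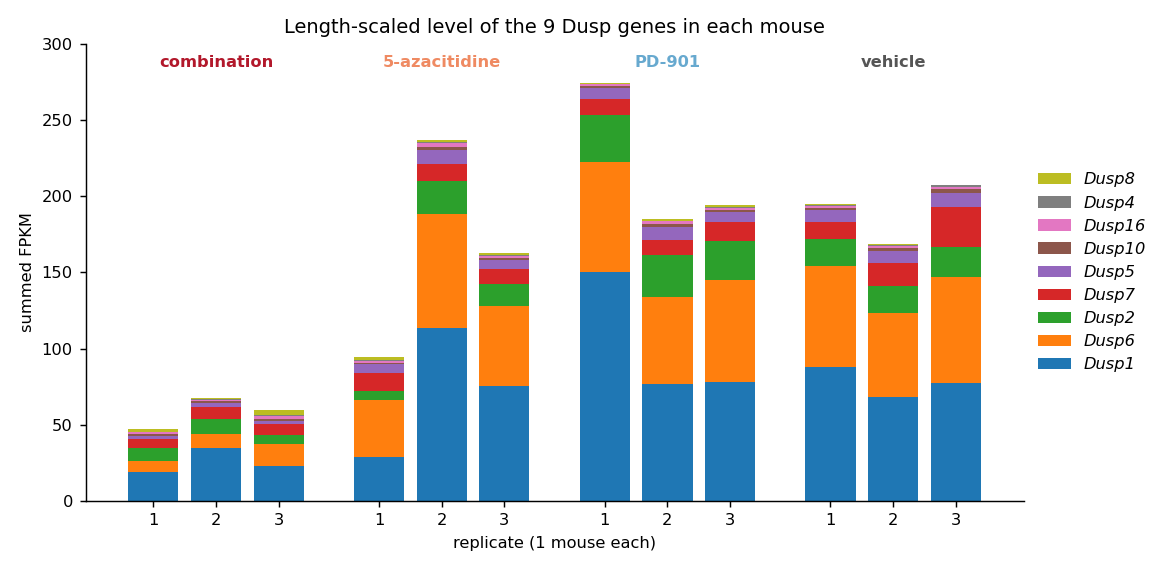
Stacked bars give the summed FPKM of the 9 Dusp genes in each of the 12 mice, by group and replicate. The 3 combination mice sum to 47.0, 67.7 and 59.9 FPKM, 5-azacitidine replicate 1 to 94.6 FPKM, and the 8 other mice to at least 163 FPKM.

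The summed FPKM of the family was 47.0, 67.7 and 59.9 in the combination libraries, 94.6, 237 and 163 in the 5-azacitidine libraries, 275, 185 and 194 in the PD-901 libraries, and 195, 168 and 207 in the vehicle libraries. The make-up of the sum also differed. Dusp6 took 14.4, 13.2 and 24.3% of it in the combination libraries, against 26.1 to 39.2% in the 9 others. Dusp1 took 38.3 to 51.7% of it in the combination libraries, against 30.6 to 54.8% in the 9 others, so that the shares of Dusp1 overlapped where those of Dusp6 did not.

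Most of the family moved when both drugs were set against vehicle. Of the 9 genes 5 fell (Dusp1, Dusp2, Dusp5, Dusp6 and Dusp7), Dusp8 rose, and Dusp4, Dusp10 and Dusp16 did not pass the test. Calls are from edgeR's quasi-likelihood F test over 17475 genes, at an adjusted p under 0.05, which called 13.8% of all genes, 7.97% lower and 5.78% higher. The median log2 change of the 9 genes was -1.29, beside 0.01 over all genes tested. The 3 combination libraries did not overlap the 3 vehicle libraries for the same 6 genes, 5 lower and 1 higher, where 15.9% of all genes lay lower without overlap and 16.1% higher. Positions against all 9 other libraries are given below for single genes and were not counted over all genes. In bulk marrow, fewer cells of a type and less RNA per cell cannot be told apart.

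**Figure D2:**
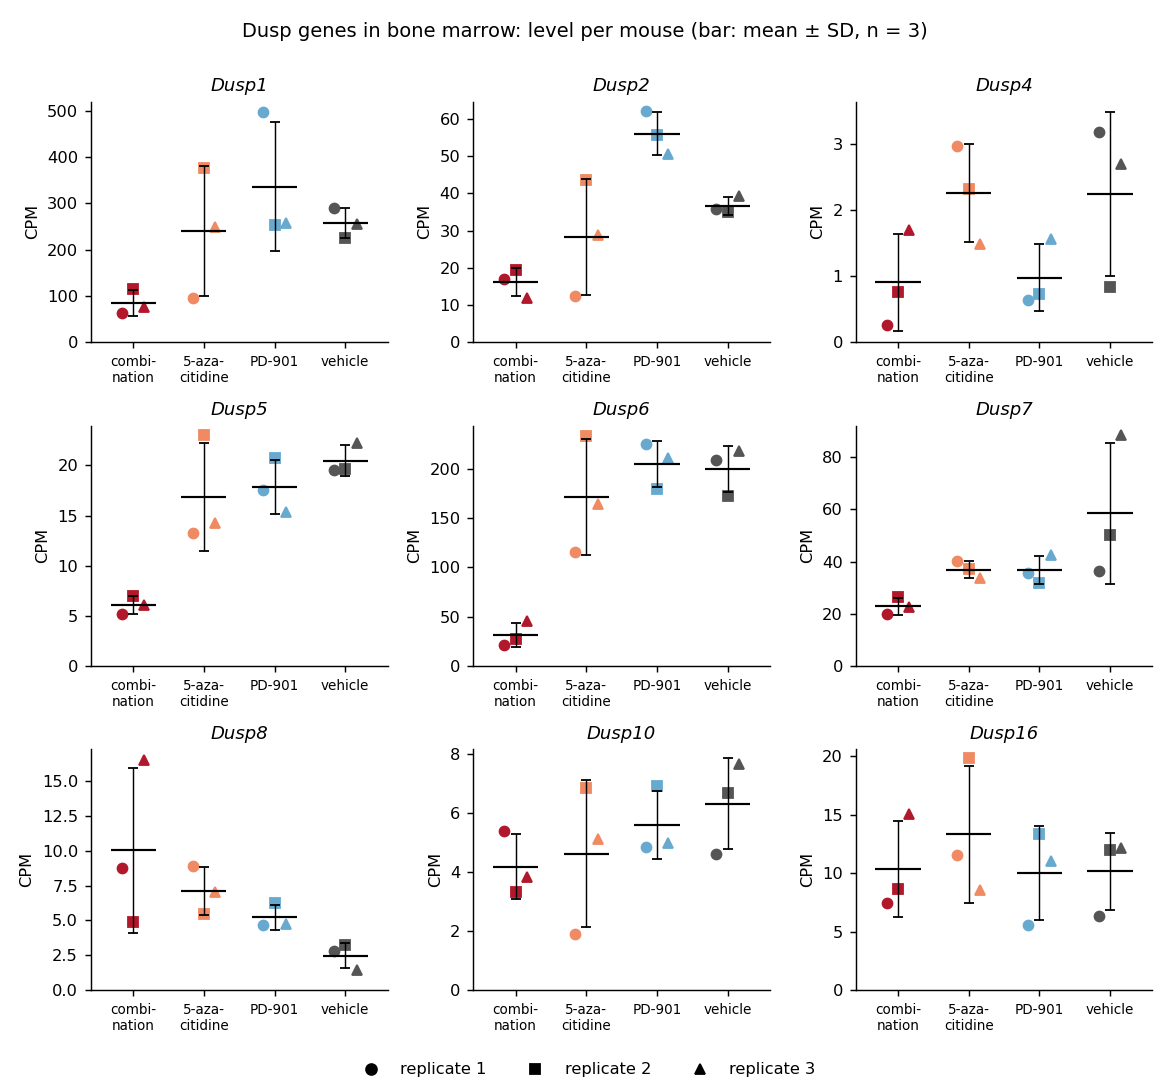
Each panel plots the CPM of a Dusp gene in the 12 mice by group, with replicates 1 to 3 as circle, square and triangle and bars for the mean ± SD (n = 3). For Dusp5, Dusp6 and Dusp7 all 3 combination mice lie below all 9 others, and for Dusp8 the vehicle mice are lowest. How many of all genes hold such positions was not counted.

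Cell type markers moved with the same contrast, and their part in the Dusp results was not tested. The contrast called 7.97% of all genes lower and 5.78% higher, and shares near these are no result about a list. Markers of dendritic cells fell in 5 of 5 genes and summed to 38.3 to 74.1 CPM in the combination libraries, against 176 to 301 CPM in the vehicle libraries. Markers of B lineage precursors fell in 9 of 9 and summed to 83.1 to 205 CPM, against 399.9 to 437 CPM. Markers of mature neutrophils fell in 4 of 8 and of monocytes in 3 of 6, with monocyte sums of 1717 to 3224 CPM against 3658 to 4412 CPM. Promyelocyte markers rose in 4 of 4 genes (5845 to 8897 CPM, against 4383 to 5203 CPM) and erythroid markers in 7 of 7 (1107 to 3277 CPM, against 664 to 967 CPM). Of the NK cell markers 1 of 4 fell, of the eosinophil, basophil and mast cell markers 1 of 4, of the stroma and vessel markers 2 of 5, and 0 of 6 T cell and 0 of 4 tested megakaryocyte markers passed. The median log2 change of the combination against vehicle was -1.14 in the NK cell list and 0.09 in the stroma and vessel list. In the eosinophil, basophil and mast cell list it was -0.79. The sum of the NK cell markers was not lower, at 89.2 to 157 CPM in the combination libraries against 87.9 to 109 CPM in the vehicle libraries. The megakaryocyte marker Gp1bb was at or near 0 in all groups.

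The promoters of the called genes with the lowest p, Dusp6, Dusp5, Dusp7 and Dusp8, are shown because the first 3 fell and Dusp8 rose in the same mice. Each is the RefSeq window of 300 bases on GRCm38.p6, from 250 bases before to 50 after the start of the gene, and it spans the start of exon 1 there. That start is the one in the count table for Dusp6 and Dusp7, and lies 36 and 559 bases inside the table's gene for Dusp5 and Dusp8. Capitals mark the motifs found on either strand, out of CCGGAA (an ETS factor site), TGACG (the core of a cyclic AMP response element), TGANTCA (an AP-1 site) and the CArG box bound by serum response factor, which was added after the windows had been read.
Dusp6, chr10:99262981-99263280, plus strand: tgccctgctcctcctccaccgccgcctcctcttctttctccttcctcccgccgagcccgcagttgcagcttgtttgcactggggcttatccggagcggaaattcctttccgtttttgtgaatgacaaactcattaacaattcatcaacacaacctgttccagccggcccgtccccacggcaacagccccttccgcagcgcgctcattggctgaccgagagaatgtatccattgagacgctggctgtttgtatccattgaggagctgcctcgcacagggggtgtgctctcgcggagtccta
Dusp5, chr19:53528895-53529194, plus strand: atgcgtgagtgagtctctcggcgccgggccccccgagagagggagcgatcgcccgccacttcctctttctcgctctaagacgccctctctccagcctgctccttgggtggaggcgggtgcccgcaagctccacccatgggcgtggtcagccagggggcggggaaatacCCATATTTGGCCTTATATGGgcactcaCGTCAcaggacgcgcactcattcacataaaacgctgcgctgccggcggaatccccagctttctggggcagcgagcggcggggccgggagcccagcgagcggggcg
Dusp7, chr9:106368382-106368681, plus strand: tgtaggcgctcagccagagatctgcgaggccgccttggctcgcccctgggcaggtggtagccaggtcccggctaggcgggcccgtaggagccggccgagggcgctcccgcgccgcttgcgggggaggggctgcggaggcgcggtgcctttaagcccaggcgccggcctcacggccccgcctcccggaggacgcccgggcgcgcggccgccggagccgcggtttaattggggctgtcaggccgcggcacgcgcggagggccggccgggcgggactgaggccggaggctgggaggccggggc
Dusp8, chr7:142095235-142095534, minus strand: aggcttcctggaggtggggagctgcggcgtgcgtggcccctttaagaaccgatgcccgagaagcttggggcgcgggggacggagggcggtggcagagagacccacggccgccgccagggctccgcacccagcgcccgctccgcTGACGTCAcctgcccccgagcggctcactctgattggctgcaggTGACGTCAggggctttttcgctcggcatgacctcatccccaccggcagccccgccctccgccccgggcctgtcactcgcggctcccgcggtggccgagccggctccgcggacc
The Dusp5 window holds 2 CArG boxes side by side and 1 TGACG, none overlapping. The Dusp8 window holds 4 TGACG, on alternating strands, with bases 144 to 148 on the plus strand of the window sharing 2 bases with 147 to 151 on its minus strand, and 188 to 192 likewise with 191 to 195. Each of these pairs is 1 stretch of TGACGTCA, read on both strands. No letters of the 4 motifs were found in the Dusp6 and Dusp7 windows. Among all 32851 RefSeq windows of this length, 1.63% hold a CArG box, 20.81% hold TGACG, 14.9% hold CCGGAA and 7.81% hold TGANTCA. Of the other members, the Dusp1 window holds 3 TGACG, those of Dusp2 and Dusp16 hold 1 each, and that of Dusp10 holds none. In the Dusp1 window bases 108 to 112 and 111 to 115, on opposite strands, overlap in the same way. The RefSeq starts of Dusp1 and Dusp10 lie 53656 and 21079 bases inside the count table's gene, so these windows are not at its start. Dusp4 was not matched.

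Dusp6, the cytoplasmic ERK phosphatase whose transcription follows ERK activity, had the lowest p of the members in the combination mice. The gene lies on chromosome 10 (mm10, 99263231 to 99267489, plus strand). It was at 21.2, 27.9 and 45.6 CPM in the combination libraries, at 116, 233 and 164 CPM in the 5-azacitidine libraries, at 225, 179 and 211 CPM in the PD-901 libraries, and at 209, 173 and 218 CPM in the vehicle libraries. The 3 combination libraries lay below all 9 others, and the 3 remaining groups overlapped one another. Against vehicle Dusp6 fell 6.32-fold (log2 change -2.66 ± 0.28 SE, 95% interval -3.25 to -2.07, adjusted p = 0.00208), and no other of the 17475 genes had a lower p. The log2 change ran from -3.02 to -2.44 over the 12 fits that left out 1 library, and the call held in all 12. Without the 4 libraries lowest in Lyz2 it was -2.26 (adjusted p = 0.00677).

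Dusp7, the close relative of Dusp6 in the cytoplasm, also fell in the combination mice, by a smaller amount. It lies on chromosome 9 (106368632 to 106375724, plus strand) and stood at 19.9, 26.4 and 22.6 CPM in the combination libraries, at 40.0, 37.1 and 33.6 CPM in the 5-azacitidine libraries, at 35.8, 31.96 and 42.5 CPM in the PD-901 libraries, and at 36.4, 50.3 and 88.6 CPM in the vehicle libraries. The combination libraries lay below all 9 others, and vehicle replicate 3 was far above the rest. Against vehicle it fell 2.55-fold (log2 change -1.35 ± 0.25, adjusted p = 0.00459). The call held in all 12 fits that left out 1 library, and the change was -0.92 without vehicle replicate 3.

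Among the nuclear enzymes Dusp5, which acts on ERK alone, had the lowest p against vehicle. It lies on chromosome 19 (53529109 to 53542431, plus strand) and was at 5.14, 6.99 and 6.07 CPM in the combination libraries, at 13.3, 23.1 and 14.2 CPM in the 5-azacitidine libraries, at 17.5, 20.7 and 15.4 CPM in the PD-901 libraries, and at 19.6, 19.6 and 22.2 CPM in the vehicle libraries. As for Dusp6, the 3 combination libraries lay below all 9 others. Against vehicle the fall was 3.37-fold (log2 change -1.75 ± 0.24, adjusted p = 0.00251), a call that held in all 12 fits without 1 library. Its exons share 547 bases with the antisense gene AC137853.2, which had at most 10 counts in any library. The sources used here do not say whether reads were counted by strand.

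Dusp1, an immediate early gene whose enzyme acts on p38, JNK and ERK, fell with a wider spread. It lies on chromosome 17 (26505590 to 26562128, minus strand) and stood at 63.1, 116 and 76.0 CPM in the combination libraries, at 95.9, 376 and 249.7 CPM in the 5-azacitidine libraries, at 498, 254 and 258 CPM in the PD-901 libraries, and at 290.3, 226 and 256 CPM in the vehicle libraries. Its exons share 11 bases with Ergic1 on the other strand. The combination libraries lay below those of vehicle and PD-901, and 5-azacitidine replicate 1 lay among them. Against vehicle it fell 3.03-fold (log2 change -1.60 ± 0.42, adjusted p = 0.0257). The call held in 7 of the 12 fits that left out 1 library and was lost without vehicle replicate 1 or 3, 5-azacitidine replicate 3, or combination replicate 1 or 3 (highest adjusted p = 0.151). Without the 4 libraries lowest in Lyz2 the change was -1.75 with adjusted p = 0.639.

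Dusp2, a nuclear phosphatase of activated leukocytes, also fell in the combination mice. It lies on chromosome 2 (127336159 to 127338376, plus strand) and was at 17.0, 19.3 and 12.0 CPM in the combination libraries, at 12.5, 43.7 and 28.8 CPM in the 5-azacitidine libraries, at 62.2, 55.6 and 50.5 CPM in the PD-901 libraries, and at 35.7, 34.9 and 39.4 CPM in the vehicle libraries. Its PD-901 libraries lay above all 9 others, and 5-azacitidine replicate 1 again lay among the combination libraries. Against vehicle it fell 2.28-fold (log2 change -1.19 ± 0.32, adjusted p = 0.0252), with the call kept in 7 of the 12 fits without 1 library. It was lost without any 1 of the vehicle libraries or without combination replicate 1 or 3 (highest adjusted p = 0.113). Without the 4 libraries lowest in Lyz2 the change was -1.72 with adjusted p = 0.420.

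Dusp4, the nuclear relative of Dusp1 that ERK also induces, was barely detected. It lies on chromosome 8 (34807297 to 34819894, plus strand) and had 5, 15 and 43 counts in the combination libraries, 45, 37 and 32 in the 5-azacitidine libraries, 16, 12 and 43 in the PD-901 libraries, and 58, 17 and 64 in the vehicle libraries. These counts correspond to 0.254 to 1.70 CPM in the combination libraries and 0.838 to 3.19 CPM in the vehicle libraries, which overlapped. The log2 change against vehicle was -1.29 with a 95% interval from -2.74 to 0.17 (adjusted p = 0.244), an interval that holds both no change and a change as large as that of Dusp5.

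The immediate early genes that share the rapid induction of Dusp1 and Dusp2 are also raised when marrow is dissociated. A list of 20 immediate early and dissociation stress genes moved with the combination. Of 18 tested 13 fell and 1, the chaperone gene Hsph1, rose, beside 7.97% of all genes lower and 5.78% higher, with a median log2 change of -1.34. Their sum was 1288 to 1815 CPM in the combination libraries, 2114 to 4222 CPM in the 5-azacitidine libraries, 4436 to 7879 CPM in the PD-901 libraries, and 3389 to 4115 CPM in the vehicle libraries. The part of marrow handling in the Dusp1 and Dusp2 values was not tested.

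Among the enzymes that prefer JNK and p38, Dusp8 rose and the others did not pass. Dusp8 lies on chromosome 7 (142079490 to 142095843, minus strand) and was at 8.75, 4.90 and 16.5 CPM in the combination libraries, at 8.90, 5.45 and 7.04 CPM in the 5-azacitidine libraries, at 4.64, 6.28 and 4.77 CPM in the PD-901 libraries, and at 2.80, 3.20 and 1.43 CPM in the vehicle libraries. Its exons share 66 bases with the antisense gene Gm32786, which had at most 4 counts in any library. All 9 libraries with a drug lay above the 3 vehicle libraries, and the combination libraries had the widest spread. Against vehicle Dusp8 was 4.07-fold higher (log2 change 2.03 ± 0.42, adjusted p = 0.00744), from 96, 172 and 419 counts in combination replicates 2, 1 and 3 and 34 to 65 counts in the vehicle libraries. The call held in all 12 fits without 1 library, with a change of 1.46 without combination replicate 3, and without the 4 libraries lowest in Lyz2 the change was 3.52 (adjusted p = 0.00229), between the highest and the lowest of the 12 libraries.

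Dusp10, whose enzyme restrains JNK and p38 in immune cells, averaged 4.18 ± 1.08 CPM in the combination libraries, 4.61 ± 2.49 CPM in the 5-azacitidine libraries, 5.57 ± 1.14 CPM in the PD-901 libraries and 6.30 ± 1.54 CPM in the vehicle libraries. Its groups overlapped, and the log2 change of the combination against vehicle was -0.60 (95% interval -1.44 to 0.25, adjusted p = 0.374). It lies on chromosome 1 (184013302 to 184075636, plus strand). Dusp16, a JNK phosphatase that shuttles between nucleus and cytoplasm, lies on chromosome 6 (134715468 to 134792625, minus strand). It averaged 10.4 ± 4.11, 13.3 ± 5.88, 10.01 ± 3.99 and 10.2 ± 3.30 CPM in the combination, 5-azacitidine, PD-901 and vehicle libraries. The Dusp16 groups overlapped throughout, and its 95% interval for the combination against vehicle ran from -0.80 to 0.86 on the log2 scale, with changes of -0.35 to 0.22 over the fits without 1 library.

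The MEK inhibitor by itself was set against vehicle next. None of the 9 genes passed the test, beside 0% of all genes, and the sources used here do not give the time that passed between the last dose and harvest. At an unadjusted p under 0.05 there were 2, Dusp7 and Dusp8, where 4.88% of all genes reached that, and DESeq2 and limma-voom called 0 of the 9. Dusp6 had a log2 change of 0.04 with a 95% interval from -0.52 to 0.59, and Dusp5 one of -0.20 (-0.68 to 0.28). Dusp7 had a change of -0.67 (-1.19 to -0.14, adjusted p = 0.960), with overlapping libraries, and Dusp8 one of 1.08 (0.19 to 1.97, adjusted p = 0.960). Dusp2 had a change of 0.61 (-0.06 to 1.28, adjusted p = 0.960). The PD-901 libraries lay above those of vehicle without overlap for Dusp2 and Dusp8, a position that 6.83% of all genes held. Vehicle replicate 3 was the highest library of all for Dusp7, and without it the change in Dusp7 was -0.24. With it as the only vehicle library, once the 4 libraries lowest in Lyz2 were left out, Dusp7 passed (log2 change -1.26, adjusted p = 0.0333).

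5-azacitidine alone was compared with vehicle in the same way. None of the 9 genes passed, beside 0.00572% of all genes, and 2 had an unadjusted p under 0.05, a level that 15.3% of all genes reached. Dusp8 had a log2 change of 1.53 (95% interval 0.63 to 2.42, adjusted p = 0.137) and its libraries lay above those of vehicle without overlap, as did 10.8% of all genes. DESeq2 called it (adjusted p = 0.0226) and no other member, and limma-voom called 0 of the 9. Dusp7 had a change of -0.66 (-1.19 to -0.14, adjusted p = 0.228), and of -0.23 without vehicle replicate 3. With vehicle replicate 3 as the only vehicle library, once the 4 libraries lowest in Lyz2 were left out, it passed (log2 change -1.26, adjusted p = 0.0290). Dusp6, Dusp5 and Dusp2 had changes of -0.22 (-0.78 to 0.33), -0.28 (-0.77 to 0.20) and -0.37 (-1.05 to 0.30). These 3 values moved either way with single libraries: they were -0.01, -0.14 and -0.02 without 5-azacitidine replicate 1, and -0.51, -0.57 and -0.81 without 5-azacitidine replicate 2, and none passed in either fit.

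The combination was next compared with each agent alone, to see what the other drug added. Both comparisons share the combination libraries with the one against vehicle, so the 3 are not independent. Against PD-901, 4 of the 9 genes fell (Dusp1, Dusp2, Dusp5 and Dusp6) and 0 rose, beside 5.12% of all genes lower and 1.69% higher. Dusp6 fell by 2.697 ± 0.28 on the log2 scale (adjusted p = 0.00193), Dusp1 fell by 1.99 ± 0.42 (adjusted p = 0.0159), Dusp2 fell by 1.80 ± 0.32 (adjusted p = 0.00580) and Dusp5 fell by 1.56 ± 0.24 (adjusted p = 0.00275). The combination libraries lay below the PD-901 libraries without overlap for these 4 and for Dusp7, where 15% of all genes did. The Dusp7 change was -0.68 (95% interval -1.21 to -0.15, adjusted p = 0.118). It passed without a low-count filter (adjusted p = 0.00769), with only the groups compared (adjusted p = 0.0376) and without vehicle replicate 3 (adjusted p = 0.0296). That of Dusp8 was 0.95 (0.09 to 1.81, adjusted p = 0.180). The calls of Dusp2, Dusp5 and Dusp6 held in all 12 fits without 1 library. That of Dusp1 was lost without PD-901 replicate 1, its highest library, and without combination replicate 1 or 3 (highest adjusted p = 0.114). Without the 4 libraries lowest in Lyz2, Dusp1 and Dusp2 did not pass (adjusted p = 0.486 and 0.190) and Dusp8 did (log2 change 1.65, adjusted p = 0.0296), with combination replicate 3, its highest library, as the only combination library. Without that replicate the change in Dusp8 was 0.39 (adjusted p = 0.687), and without combination replicate 2 it passed (adjusted p = 0.0487).

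Against 5-azacitidine, Dusp5 and Dusp6 fell and 0 rose, beside 1.07% of all genes lower and 0.252% higher. Dusp6 fell by 2.43 ± 0.27 on the log2 scale (adjusted p = 0.00614) and had the lowest p of all genes, and Dusp5 fell by 1.47 ± 0.24 (adjusted p = 0.0250). The libraries did not overlap for Dusp5, Dusp6 and Dusp7, which was so for 9.54% of all genes in the lower direction. Dusp1 had a change of -1.50 (adjusted p = 0.0971), Dusp2 one of -0.82 (adjusted p = 0.222), Dusp4 one of -1.29 (adjusted p = 0.391) and Dusp7 one of -0.68 (adjusted p = 0.187). Without 5-azacitidine replicate 1, Dusp1 (-1.88, adjusted p = 0.0112) and Dusp2 (-1.17, adjusted p = 0.0110) passed as well, whereas without 5-azacitidine replicate 2 their changes were -1.03 (adjusted p = 0.300) and -0.37 (adjusted p = 0.658). Without 5-azacitidine replicate 3 neither Dusp6 (adjusted p = 0.0756) nor Dusp5 (adjusted p = 0.0811) passed, although their changes were then -2.46 and -1.57. The call of Dusp5 was also lost without 5-azacitidine replicate 2 or combination replicate 1 or 3, and without the 4 libraries lowest in Lyz2 (adjusted p = 0.0646).

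**Figure D3:**
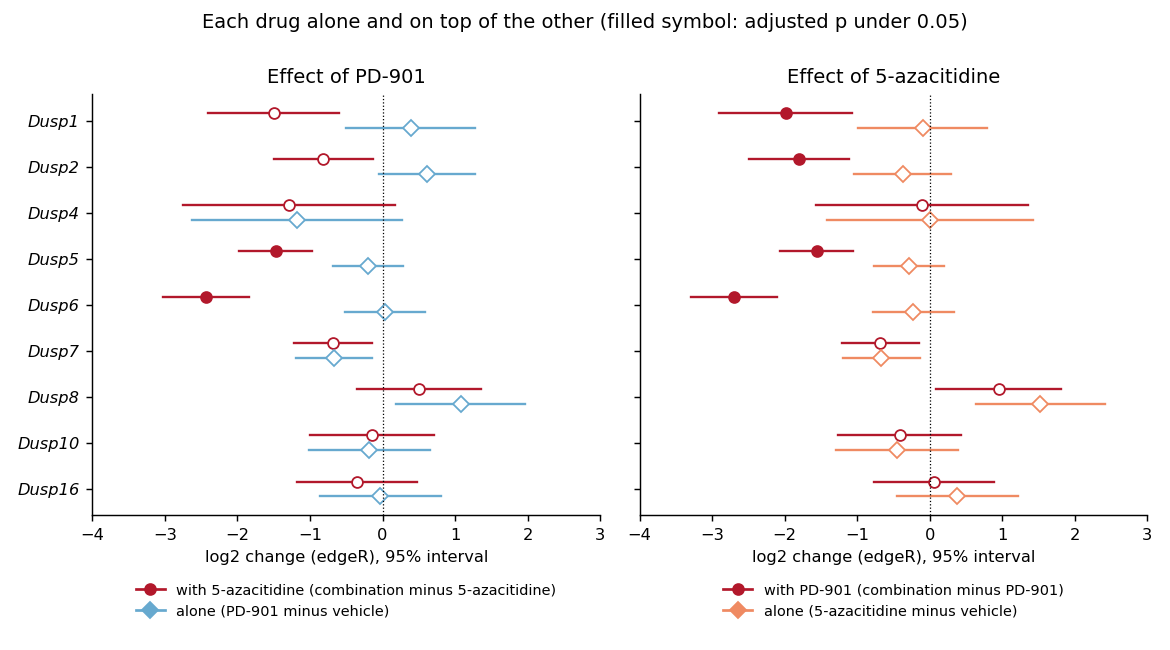
Points give edgeR log2 changes and lines their 95% intervals for the 9 genes, with the effect of PD-901 on the left and of 5-azacitidine on the right; circles are a drug on top of the other and diamonds the drug alone, and filled symbols passed the test. For Dusp6 the circles are at -2.43 and -2.697 and the diamonds at 0.04 and -0.22, while for Dusp7 all 4 symbols lie between -0.68 and -0.66.

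Whether each drug did more in the presence of the other was tested as the departure of the combination from the sum of the single effects on the log2 scale. None of the 9 genes passed edgeR's test, beside 0% of all genes, while 4 had an unadjusted p under 0.05 (Dusp1, Dusp2, Dusp5 and Dusp6), where 10.7% of all genes did. Dusp6 had a departure of -2.47 ± 0.37 (95% interval -3.27 to -1.67, unadjusted p = 1.03e-05, adjusted p = 0.0600). DESeq2 called Dusp6 (adjusted p = 8.22e-07) and Dusp5 (adjusted p = 0.0219) here, and 288 genes in all, while limma-voom called 0 of the 9. Dusp5 had a departure of -1.27 ± 0.32 in edgeR (adjusted p = 0.167), Dusp1 one of -1.89 ± 0.58 (adjusted p = 0.271) and Dusp2 one of -1.43 ± 0.45 (adjusted p = 0.267). Without 5-azacitidine replicate 1, Dusp6 (adjusted p = 0.0100), Dusp1 (adjusted p = 0.0338) and Dusp2 (adjusted p = 0.0148) passed in edgeR, and without 5-azacitidine replicate 2 their adjusted p was 0.0932, 0.415 and 0.416. Without combination replicate 3 Dusp6 passed (-2.84, adjusted p = 0.00508), and without the 4 libraries lowest in Lyz2 it was -1.84 (adjusted p = 0.223).

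For Dusp7 the estimates with and without the other drug lay close together, with a wide interval. Its change with PD-901 was -0.68 on top of 5-azacitidine and -0.67 alone, in pairs of groups that share no library, and its departure from the sum was -0.01 with a 95% interval from -0.76 to 0.73 (adjusted p = 0.994). The value depends on the vehicle libraries, at -0.45 without replicate 3 and 0.24 without replicate 1.

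Any difference among the 4 groups was tested once per gene, and 5 of the 9 passed (Dusp2, Dusp5, Dusp6, Dusp7 and Dusp8), beside 6.96% of all genes. The adjusted p was 0.00660 for Dusp6, 0.00839 for Dusp5, 0.0198 for Dusp2, 0.0237 for Dusp7, 0.0358 for Dusp8, 0.0521 for Dusp1, 0.365 for Dusp4, 0.707 for Dusp10 and 0.854 for Dusp16. Over the 12 leave-one-out fits Dusp6 was called 12 times, and Dusp5 lost its call without combination replicate 1 (adjusted p = 0.0580). Dusp1 passed in 2 of the 12 fits, those without 5-azacitidine replicate 1 or 2 (lowest adjusted p = 0.00939), where 6 of the 9 genes passed. Neither Dusp2 nor Dusp5 passed without the 4 libraries lowest in Lyz2 (adjusted p = 0.409 and 0.0857). Dusp7 lost its call without combination replicate 1 or 3, Dusp2 without these or PD-901 replicate 1, and Dusp8 kept it in 5 of the 12 fits.

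Other genes of the Dusp family and its relatives, and MAP kinase phosphatases outside it, did not pass where they were tested. Dusp9, the third cytoplasmic ERK phosphatase of the family, had 2, 21 and 8 counts in the combination libraries and 31, 15 and 37 in the vehicle libraries, and it did not pass (log2 change -1.42, adjusted p = 0.282). Of 16 atypical Dusp genes and their relatives, 10 were tested and 0 passed in the combination against vehicle, beside 13.8% of all genes. Dusp3, an atypical phosphatase of ERK and JNK, had a change of -0.95 (adjusted p = 0.0530), Dusp22, a modulator of JNK signalling, one of -0.90 (adjusted p = 0.0715), Dusp12 one of -0.30 and Dusp19 one of 0.30. Of 8 further MAP kinase phosphatases outside the family 7 were tested and 0 passed, with the haematopoietic tyrosine phosphatase gene Ptpn7 at 0.23 (adjusted p = 0.264). Lists this short can hold 0 calls at a share of 13.8%, so these counts are no result about the lists.

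The kinases of the pathway and other ERK targets are set beside the 7.97% of all genes called lower and 5.78% called higher in the combination against vehicle, and shares near these are no result about a list. Of 10 MAP kinase genes 2 fell and 0 rose, Mapk7, which encodes ERK5, by a log2 change of -1.23 (adjusted p = 0.00251) and Mapk3, which encodes ERK1, by -0.58 (adjusted p = 0.0393). Mapk14, which encodes p38 alpha, and Mapk9, which encodes JNK2, had changes of -0.44 and 0.41 (adjusted p = 0.0508 and 0.0517). Of 7 MAP kinase kinase genes Map2k1, which encodes MEK1, fell (-0.58, adjusted p = 0.0125). Of 16 ERK target genes outside the Dusp family 4 fell and 0 rose, the transcription factor gene Etv5 (-1.62), Phlda1 (-1.47), the receptor gene Epha2 (-2.14) and the cyclin gene Ccnd1 (-2.08), and the median of the 16 was -1.18.

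The genes whose pattern was most like that of Dusp6 over the 12 libraries were P2ry13, Stfa2l1, Crlf2, Cstdc4, Klf6 and Timp2. They had the highest Pearson r of log2 CPM with Dusp6 among 9826 protein-coding genes of at least 5 CPM, at 0.975, 0.969, 0.955, 0.955, 0.951 and 0.947. The 12 points share the difference between the combination and the other groups, so r is a description of these libraries. P2ry13, a receptor for ADP, averaged 7.44 CPM in the combination libraries, 16.7 CPM after 5-azacitidine, 19.2 CPM after PD-901 and 19.1 CPM after vehicle. Klf6, a Kruppel-like transcription factor that the immediate early list also holds, averaged 120.1, 221, 239 and 259.8 CPM in the same groups. Stfa2l1 and Cstdc4 belong to the stefin A cluster of near-identical genes, among which counting can split reads, and their values are uncertain for that reason. In 5-azacitidine replicate 1 Dusp6 and all 6 were at their lowest outside the combination group.

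**Figure D4:**
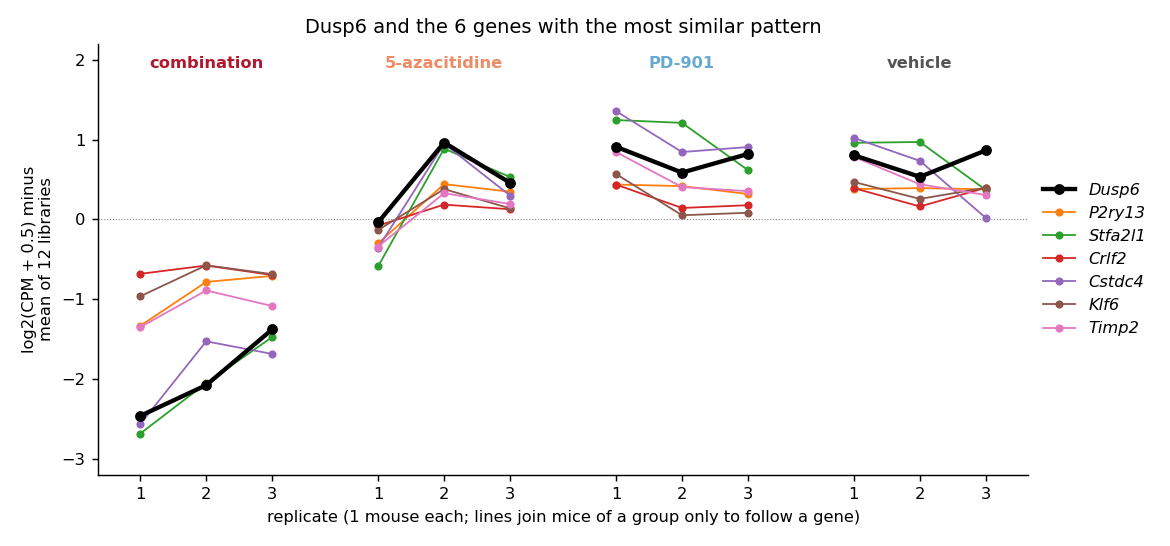
Lines give log2(CPM + 0.5) of Dusp6 (black) and the 6 genes with the highest r, each minus its mean over the 12 libraries, by group and replicate. The 3 combination mice lie below 0 for all 7 genes, and 5-azacitidine replicate 1 lies below the 8 other mice.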

How the data were processed

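Total RNA with an integrity number above 7 was made into libraries with a low-input kit and sequenced as read pairs, per the labels' protocols. The deposited table of the authors gives, for each gene and each of 12 libraries, an unscaled count of reads, with a gene length. Per the submitters' processing notes, bcl2fastq, featureCounts, STAR 2.7.2a and Subread 1.6.5 were used with build mm10. The sources used here do not name the annotation release, and all 9 members have the same bounds in GENCODE M21.

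From these counts filterByExpr (minimum count 10, minimum total 15) kept 17475 genes. TMM gave the library scaling, and edgeR 4.0.16 in R 4.3.3 fitted a mean per group over all 12 libraries (8 residual degrees of freedom, two-sided quasi-likelihood F tests, Benjamini-Hochberg adjustment over all genes of a contrast, threshold 0.05). The procedure was tested on simulated data. Alternatives were DESeq2 1.42.0, limma-voom (limma 3.58.1), DESeq2 size factors, no low-count filter, a stricter filter (1 CPM in 6 libraries), only the groups compared, and each library left out; leaving out the 4 libraries lowest in Lyz2 was chosen after seeing the data. The members, lists and tests were chosen with earlier results of these data known. All 9 members are described; from each other list up to 4 genes with the lowest p for the combination against vehicle are named, and the 6 genes most like Dusp6 by Pearson r. The protein sequences planned were not used here. Reads that are PCR copies of 1 molecule were not separated here.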

Additional observations from a re-analysis of the deposited data

How the results depend on the processing

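No paired analysis was possible because the labels number the mice through the whole series and pair none between groups. The replicate numbers used here only follow label order within each group. Low counts limit Dusp4, Dusp8 and Dusp10, and with 3 mice a group 1 library can decide a call. The alternatives were compared for 44 results of single members, those the report gives, and of their 822 values under 19 alternatives 739 kept direction and side of the threshold, 43 no longer passed, 29 newly passed and 11 changed sign, those of Dusp6 and Dusp7 given below. Changes outside these 44 were not counted, and some near 0 changed sign too, such as that of Dusp16 for the combination against vehicle (-0.35 to 0.22). The causes were not tested.

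The number of the 9 genes called was 0 for PD-901 against vehicle, 0 for 5-azacitidine against vehicle, 6, 4 and 2 for the combination against vehicle, PD-901 and 5-azacitidine, 0 for the departure from the sum, and 5 for any difference. Without a low-count filter 2 were called for 5-azacitidine against vehicle, 4 for the combination against 5-azacitidine and 3 for the departure. DESeq2 called 1 for 5-azacitidine against vehicle and 2 for the departure. With only the groups compared 0 were called for the combination against 5-azacitidine. Leaving out the 4 libraries lowest in Lyz2 gave a count of 1 for PD-901 against vehicle, 1 for 5-azacitidine against vehicle, 1 for the combination against 5-azacitidine and 3 for any difference. Leaving out 1 library gave 4 to 6 for the combination against vehicle, 3 to 5 against PD-901, 0 to 4 against 5-azacitidine, 0 to 3 for the departure, 1 to 6 for any difference, and 0 for each single agent.

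The log2 change of Dusp6 with PD-901 against vehicle, 0.04, was -0.078 without the 4 libraries lowest in Lyz2 and -0.055 to 0.12 over the fits without 1 library. The departure of Dusp7, -0.01, was 0.012 under the stricter filter, 0.55 without the 4 libraries lowest in Lyz2 and -0.45 to 0.24 without 1 library. Dusp1 lost its call without a low-count filter for the combination against vehicle (adjusted p = 0.133) and against PD-901 (adjusted p = 0.0843), where Dusp7 passed in its place and the count stayed at 4.

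Over all genes 2403, 1191 and 231 were called for the combination against vehicle, PD-901 and 5-azacitidine, 0 and 1 for PD-901 and 5-azacitidine against vehicle, 0 for the departure and 1217 for any difference. DESeq2 called 2215 and 1048 for the combination against PD-901 and 5-azacitidine, 5 and 613 for the single agents, 288 for the departure and 3018 for any difference. Without a filter these were 1756, 986, 53, 572, 400 and 2629. The combination against 5-azacitidine had 365 calls under the stricter filter and 4 with only the groups compared. 5-azacitidine against vehicle had 2 calls in limma-voom and 7 with only the groups compared. Leaving out the 4 libraries lowest in Lyz2 gave 670 and 693 for the combination against vehicle and PD-901, 17 and 26 for the single agents, 30 for the departure and 551 for any difference. Leaving out 1 library gave 803 to 2730, 386 to 1563 and 0 to 735 for the combination, 0 to 1 and 0 to 106 for the single agents, 0 to 150 for the departure and 4 to 1674 for any difference.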
